A study of Caenorhabditis elegans with 2 samples.

Results

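The chaperone and heat shock genes of C. elegans were examined for binding of the transcription factor EFL-1. The 70 genes were taken by name from the 19973 protein-coding genes on the 6 nuclear chromosomes of the assembly WBcel235. They are all genes named hsp-, dnj-, cct- or pfd-, and hsf-1, sti-1, daf-41, cdc-37 and bag-1; daf-21 carries the name hsp-90 in the annotation used. EFL-1, a worm relative of mammalian E2F4 and E2F5, was mapped by chromatin immunoprecipitation and sequencing (ChIP-seq) with an antibody named for the protein. The material was 2 biological replicates of whole hermaphrodite first-stage (L1) larvae of the wild-type strain N2, grown at 26 °C. One temperature, stage and genotype were analysed here, so the contrast made is between families of genes in the same larvae. Whole animals were used, and binding in few cells and weak binding in many cannot be told apart.

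Chaperones help proteins fold and keep unfolded ones from clumping. The chaperonin CCT is a ring of related subunits that folds actin and tubulin, and prefoldin hands it newly made chains. Hsp70 works in cycles with J-domain proteins, which trigger its ATPase, and with exchange factors such as BAG-1, while Hsp90 finishes the folding of kinases and receptors with co-chaperones such as STI-1, DAF-41 (the worm p23) and CDC-37. Small heat shock proteins hold on to unfolded chains. The hsp-16 genes and hsp-70 are known in the worm for being nearly silent until heat activates the factor HSF-1, which binds repeats of GAA called heat shock elements. In growing larvae HSF-1 has also been described at constitutive chaperone genes together with EFL-1 and its partner DPL-1. For the comparison, all cct- and pfd- genes, hsp-1, hsp-90, sti-1, daf-41, cdc-37 and bag-1 formed a constitutive class of 20 genes, and the hsp-16 genes with hsp-70 formed a heat-inducible class of 7.

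A gene was called bound when a peak summit lay in its promoter window, which reached from 500 bp before the annotated start to 200 bp past it. The peaks were the authors' set after a threshold on the irreproducible discovery rate (IDR), which asks whether peaks rank alike in replicates. Scores are the authors' peak scores, on a scale that the sources do not state, and ranks count from the strongest of 4835 peaks. A relaxed list of 30000 pooled peaks shows weaker signal. The IDR set equals the top 4835 of that list, so a bound call does not mean that each replicate lists the peak. The read depth of the libraries is unknown from these lists.

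The DNA under 6 of the summits is shown first, with matches to 2 of the 3 kinds of motif examined here marked. Matches to the remaining one, the cell cycle genes homology region described below, are not marked. Each stretch is read 5′ to 3′ on the gene's own strand from the RefSeq sequence of WBcel235 (ce11), within 100 bp of the summit and without annotated exon bases. Capitals mark the E2F consensus in the first 3 stretches and a full heat shock element in the next 2. The last stretch lies at sti-1, the strongest constitutive peak, and holds neither. The stretches are chrIV:1094261-1094461 (minus strand) for cct-8, chrIII:4508472-4508672 (minus) for cct-5, chrII:4851724-4851924 (plus) for dnj-9, chrV:1805014-1805177 (plus) for the summit between hsp-16.2 and hsp-16.41, chrIII:8447096-8447266 (minus) for hsp-110 and chrV:773329-773517 (plus) for sti-1.
cct-8: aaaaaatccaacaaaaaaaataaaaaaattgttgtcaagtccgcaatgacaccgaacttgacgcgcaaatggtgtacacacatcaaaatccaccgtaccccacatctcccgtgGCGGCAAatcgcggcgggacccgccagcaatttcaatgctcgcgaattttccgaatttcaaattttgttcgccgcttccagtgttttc
cct-5: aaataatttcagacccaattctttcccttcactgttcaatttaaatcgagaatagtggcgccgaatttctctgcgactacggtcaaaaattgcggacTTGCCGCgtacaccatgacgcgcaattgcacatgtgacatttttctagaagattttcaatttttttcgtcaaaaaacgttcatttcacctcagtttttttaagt
dnj-9: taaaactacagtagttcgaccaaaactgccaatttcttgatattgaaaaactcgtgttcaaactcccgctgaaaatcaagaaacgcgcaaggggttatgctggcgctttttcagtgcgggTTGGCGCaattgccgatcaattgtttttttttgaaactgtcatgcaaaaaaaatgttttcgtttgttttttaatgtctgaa
hsp-16.2 and hsp-16.41: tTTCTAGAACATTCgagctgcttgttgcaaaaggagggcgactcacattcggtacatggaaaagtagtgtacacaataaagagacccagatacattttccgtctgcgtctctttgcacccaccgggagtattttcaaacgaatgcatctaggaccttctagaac
hsp-110: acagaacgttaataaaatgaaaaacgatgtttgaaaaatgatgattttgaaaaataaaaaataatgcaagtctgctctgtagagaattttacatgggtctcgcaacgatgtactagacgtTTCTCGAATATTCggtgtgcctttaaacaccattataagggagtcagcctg
sti-1: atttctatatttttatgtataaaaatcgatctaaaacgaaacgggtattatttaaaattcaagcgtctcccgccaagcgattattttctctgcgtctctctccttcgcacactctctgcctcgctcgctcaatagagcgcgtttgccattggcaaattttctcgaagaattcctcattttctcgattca

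Of the 70 chaperone and heat shock genes, 36 (51.4%) were bound, against 15.2% of all protein-coding genes. The 36 genes held 35 distinct summits, since hsp-16.2 and hsp-16.41 share theirs. Their median peak score was 694, against 325 over all 3027 bound genes, which include them. Of the 35 summits, 11 (31.4%) ranked in the top 500 and 23 (65.7%) in the top 1000, against 10.3% and 20.7% of all IDR peaks. The IDR set also holds peaks outside promoter windows. Its median score was 179.8, below the 325 of bound genes, so this excess is not particular to chaperone genes in full. These are counts of named genes in 1 peak set, and no test of the list was made.

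In the constitutive class 16 of 20 genes (80%) were bound, with a median score of 1067 and scores between 139 and 5050. In the heat-inducible class 2 of 7 genes (28.6%) were bound, and both through 1 summit with a score of 188. Both shares lay above the 15.2% of all protein-coding genes, and the difference between the classes was not tested. Of the 7 heat-inducible genes, 4 lie in an inverted repeat, where no word of 36 bases in the promoter window is unique in the genome, and without them 2 of 3 heat-inducible genes (66.7%) were bound. The plot of shares by family shows the order, with the chaperonin and prefoldin genes at the top.

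**Figure D1:**
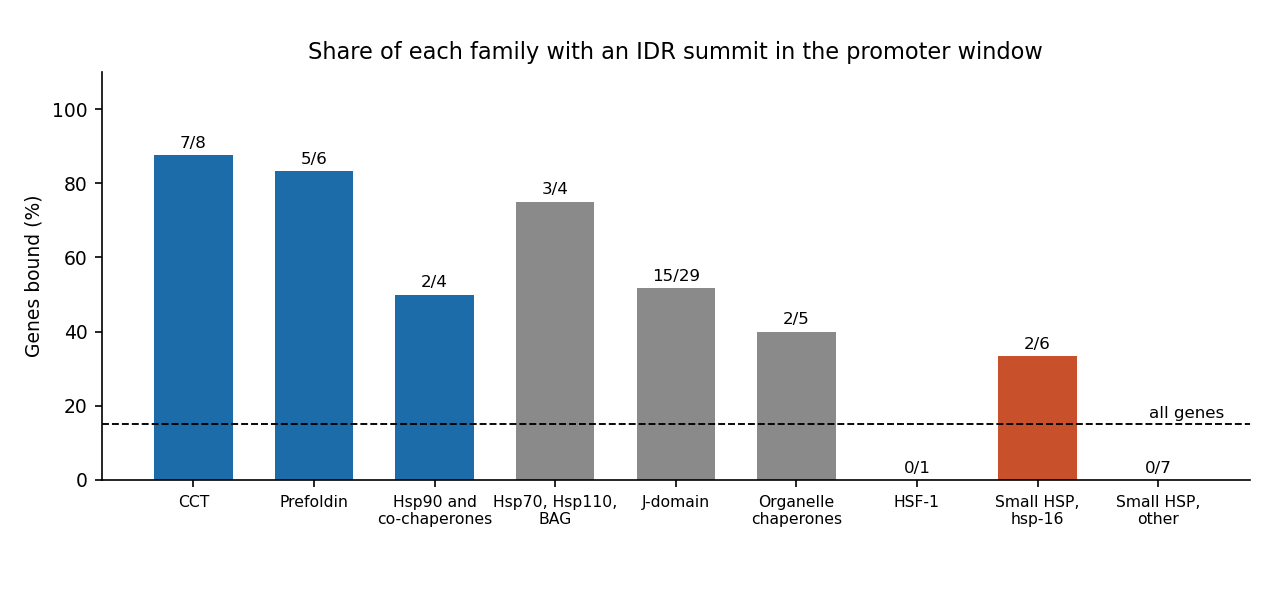
Percent of genes bound in each family (bars, with the number bound over the number of genes), by an IDR summit in the promoter window; the dashed line marks all protein-coding genes (15.2%). Blue bars are families wholly in the constitutive class, the red bar is the hsp-16 part of the heat-inducible class, and grey bars are other or mixed families; CCT (7/8) and prefoldin (5/6) stand highest, and the small heat shock genes outside hsp-16 (0/7) and hsf-1 (0/1) have none bound. Each family is counted in full, so no error bars are drawn.

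Of the 8 CCT subunit genes, 7 were bound, with scores between 139 and 2748. The strongest was at cct-1, with a score of 2748 and rank 172, and with scores of 1142 in replicate 1 and 1615 in replicate 2. That at cct-8 scored 2646 (rank 185; 1234 and 1415 in replicates 1 and 2), and that at cct-6 scored 2396 (rank 209; 742 and 1658). These 3 subunit genes ranked in the top 500 of each replicate list. The gene cct-7 followed with 680 (188 and 484 in replicates 1 and 2), and cct-5 with 564 (141 and 419). The 2 weakest were cct-2 with 181 (46.4 and 138) and cct-4 with 139 (52 and 85.1). The gene cct-3 was not bound and had no relaxed summit in its window; the nearest IDR summit lay 932 bp upstream with a score of 77.4, in the window of F54A3.6, and had no match in replicate 1. Of the 7 bound cct genes, 6 shared the summit with a gene read the other way. The partners were mig-5, a Dishevelled gene of Wnt signalling, at cct-1, nst-1, which encodes the nucleolar GTPase nucleostemin, at cct-4, and alh-9, F25F2.1, T10B5.4 and Y55F3AR.2 at cct-6, cct-5, cct-7 and cct-8.

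Prefoldin genes were bound in 5 of 6 cases. The peak at pfd-6 was among the strongest of all members, with a score of 4949 and rank 48, and with 1912 in replicate 1 and 3049 in replicate 2. The gene pfd-5 scored 2647 (rank 183; 930 and 1729 in replicates 1 and 2) and pfd-1 scored 1106 (450 and 655). The last of these shares its summit with F01G4.6. The summit at pfd-3 lay only 14 bp upstream of the annotated start, the closest of all members, with a score of 648 (247 and 398 in the replicates). That at pfd-4 scored 233 (89.3 and 147) and lies in the windows of B0035.22 and B0035.3 as well. The gene pfd-2 had no relaxed summit and no IDR summit within 2000 bp of its start.

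Among the Hsp90 group the co-chaperone gene sti-1, whose product links Hsp70 to Hsp90, had the second-strongest peak of all members. It scored 5050 (rank 44), with 1875 in replicate 1 and 3191 in replicate 2, and ranked 46 and 44 in them. The peak at daf-41 was weaker, at 313 (88.7 and 229 in replicates 1 and 2), and its summit is shared with toc-1. The genes hsp-90 and cdc-37 were not bound by their annotated gene starts, but both had an IDR summit inside the gene. That in hsp-90 scored 2228 (rank 232; 986 and 1253 in replicates 1 and 2). It lay at 853 bp past the gene start and 389 bp upstream of the start of another annotated transcript of hsp-90, outside exons and also within the window of C47E8.4. That in cdc-37 scored 305 (132 and 178 in the replicates) and lay at 232 bp past the start, just outside the window and outside exons. The summit in cdc-37 is also within the window of W08F4.3. With every annotated transcript start used, both genes counted as bound and the constitutive class reached 18 of 20.

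All members of the cytosolic Hsp70 group except hsp-70 were bound. The constitutive Hsc70 gene hsp-1 had a score of 1028 (rank 559; 416 and 606 in replicates 1 and 2), with its summit 386 bp upstream. The gene bag-1 scored 1808 (rank 306; 641 and 1178). That of hsp-110, an Hsp70 relative that acts as an exchange factor, scored 1651 (rank 346; 627 and 1032) and shares its summit with rpn-3, a proteasome subunit gene. All 3 thus ranked between 306 and 559 of 4835. The heat-inducible gene hsp-70 had no relaxed summit in its window, and the nearest IDR summit lay 6898 bp past its start.

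**Figure D2:**
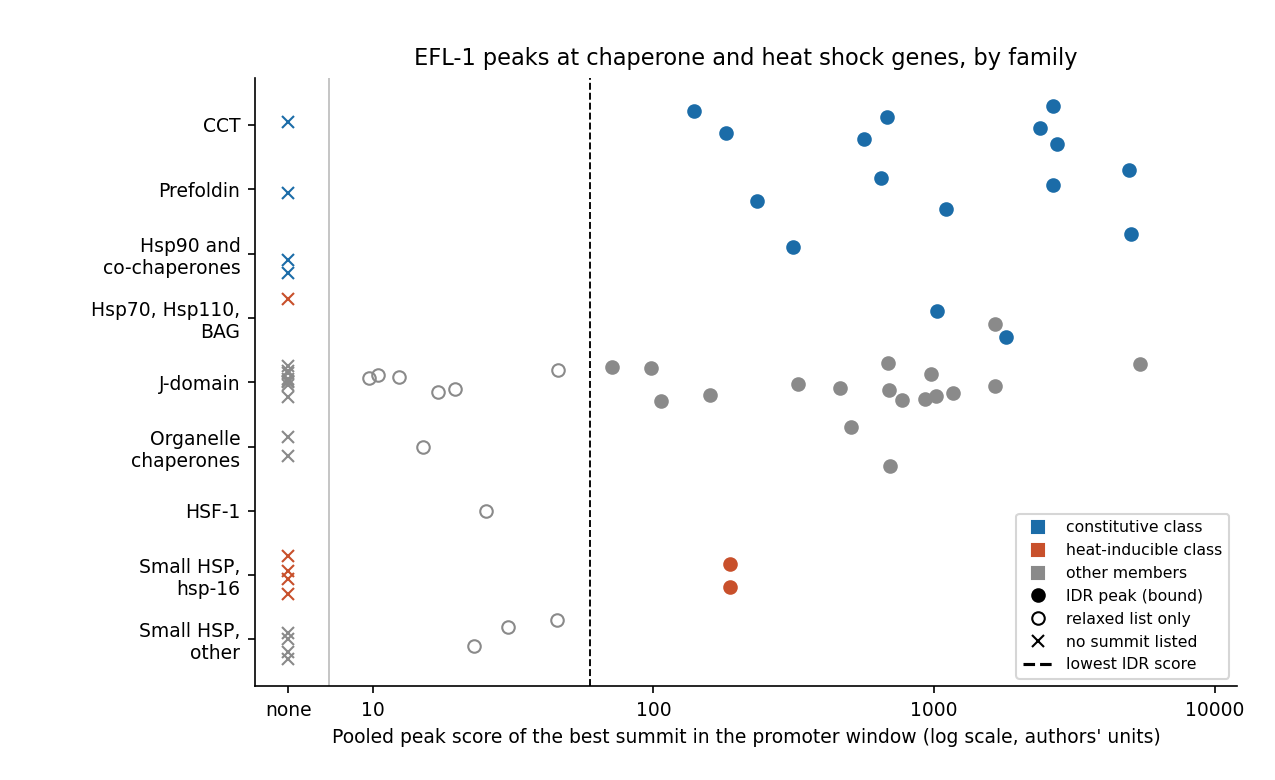
Pooled peak score of the best summit in the promoter window (log axis, authors' units), 1 mark per gene and 1 line per family. Filled circles are IDR peaks, open circles summits found only in the relaxed list, and crosses genes with no summit listed; the dashed line is the lowest score of the IDR set (59.6). Blue marks are the constitutive class, red marks the heat-inducible class and grey marks other members; all 16 filled blue circles lie at or above 139, and the 2 red ones at 188.

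The 6 hsp-16 genes stand in divergent pairs, and 1 of the 3 pairs was bound. The summit between hsp-16.2 and hsp-16.41 had a score of 188 and rank 2345, with 52.1 in replicate 1 and 133 in replicate 2. Its score was close to the median of 179.8 of the IDR set and below the median of 325 over all bound genes. This summit lay 157 bp upstream of hsp-16.2 and 64 bp upstream of hsp-16.41, between 2 heat shock elements. One is in capitals at the left end of the printed stretch, and the other straddles the start of hsp-16.41 and is cut off at its right end. The other pairs, hsp-16.1 with hsp-16.48 and hsp-16.11 with hsp-16.49, had no relaxed summit in any promoter window. Their DNA is duplicated. The 310 bp between hsp-16.11 and hsp-16.49 recur exactly, on the other strand, between hsp-16.1 and hsp-16.48, within an exact inverted match of 1881 bp. In the windows of these 4 genes 0% of the words of 36 bases occur only once in the genome, against 98 and 98.8% at hsp-16.2 and hsp-16.41. Whether reads with several placements were kept is not given in the sources used here, so the lack of peaks at these 4 genes cannot be read as a lack of binding. Within 500 bp of the whole cluster the relaxed list held 1 summit, with a score of 21.7.

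None of the other small heat shock protein genes was bound. Of 7 such genes, 0 had an IDR summit in the window and 3 had a relaxed one, against 15.2% and 32.7% of all protein-coding genes. With only 7 genes, a count of 0 cannot be set apart from that 15.2%. The gene hsp-12.6, known as a target of the insulin pathway factor DAF-16, came closest with 45.4 (23.5 in replicate 1 and 21 in replicate 2), followed by hsp-43 with 30.4 and hsp-12.2 with 22.9. The genes hsp-12.1, hsp-12.3, hsp-17 and hsp-25 had no summit in the window. All 7 windows consisted of words found once in the genome, unlike those of the duplicated hsp-16 pairs. An IDR summit with a score of 220 lay 717 bp past the start of hsp-12.3, at the far end of the gene and just outside it. The gene hsf-1, encoding the heat shock factor itself, was not bound, with a relaxed score of 25.4 (11.3 in each replicate).

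The J-domain family was the largest, with 15 of 29 genes bound. Its strongest peak, at dnj-9, was the strongest of all members, with a score of 5439 and rank 35, and with 2254 in replicate 1 and 3206 in replicate 2. It was followed by dnj-28, with 1654 (559 in replicate 1 and 1123 in replicate 2), and then by dnj-12 (1169), dnj-11 (1017), dnj-19 (976) and dnj-10 (928). Of these, dnj-12 and dnj-19 encode cytosolic class A partners of Hsp70, dnj-10 a mitochondrial one, and dnj-11 a ribosome-associated J-domain protein of the mammalian ZRF1 type. Lower scores stood at dnj-23 (767), dnj-13 (689), a class B partner active in disaggregation, and dnj-22 (686). The gene dnj-14, for the cysteine string protein of synaptic vesicles, had 461 and lies on X. The genes dnj-29, for the SEC63 subunit of the translocation channel of the endoplasmic reticulum, and dnj-25, for auxilin of clathrin uncoating, had 328 and 159. Of these J-domain genes, 9 share the summit with another gene: dnj-1 with B0035.15, dnj-11 with F38A5.2, dnj-12 with mtx-1, dnj-14 with glit-1, dnj-19 with nhr-47, dnj-20 with ZK1307.8, dnj-22 with natc-1, dnj-28 with supr-1 and dnj-29 with ndua-2. The 3 weakest, dnj-1 (107), dnj-20 (97.9), for a lumenal J-domain protein of the endoplasmic reticulum, and dnj-8 (71.4), ranked 3395, 3568 and 4335 of the 4835 IDR peaks.

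Of the 14 unbound dnj genes, 6 had a relaxed summit and 8 had none. The highest relaxed scores were 45.7 at dnj-7, for the p58IPK-type protein of the endoplasmic reticulum, 19.7 at dnj-27, for its thioredoxin-like ERdj5, and 17.1 at dnj-26. The relaxed scores at dnj-18, dnj-4 and dnj-30 were 12.4, 10.4 and 9.71. No summit was listed at dnj-2, dnj-3, dnj-5, dnj-15, dnj-16, dnj-17, dnj-21 or dnj-24. The gene dnj-16 had an IDR summit with a score of 93.4 at 268 bp past its start, which is 139 bp upstream of another of its transcript starts. A summit scoring 119 lay 773 bp upstream of dnj-5.

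Chaperones of the mitochondrion and the endoplasmic reticulum, which are induced by unfolded proteins in those organelles more than by cytosolic heat damage, gave 2 bound genes of 5. The gene hsp-3, for the BiP of unstressed cells, scored 699 (248 in replicate 1 and 447 in replicate 2) with its summit 63 bp upstream of the start. The second BiP gene, hsp-4, known as the one most strongly induced by stress in the endoplasmic reticulum, was not bound, with a relaxed score of 15.1 in the window (13.8 in replicate 2 and no match in replicate 1) and an IDR summit of 61.1 at 619 bp upstream. The mitochondrial Hsp70 gene hsp-6 scored 506 (213 and 288 in the replicates), and its summit is also in the window of C37H5.5. The chaperonin gene hsp-60 had no summit in its window, but a strong one, with a score of 2105 (rank 248; 956 and 1163 in replicates 1 and 2), lay 600 bp upstream in the window of Y22D7AL.10. The gene hsp-75, for the mitochondrial Hsp90, had no summit.

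In the worm many genes lie in operons, where a downstream gene need not have a promoter of its own. Of the 70 members, 14 start within 500 bp downstream of a gene on the same strand. Among these 6 (42.9%) were bound, against 11.1% of all 3615 genes so placed. The first gene of the run was bound for 3 of the 6 bound members and for 6 of the 8 unbound ones. The same share over all 3615 genes was not computed, so neither count can be called high or low. These 6 unbound members were dnj-2, dnj-4, dnj-15, dnj-21, dnj-30 and hsp-75, whose first genes included erm-1 (365) and ndus-8 (590). The spacing is a proxy for an operon, and the part of operons in these calls was not tested. The remaining 26 unbound genes are not of this kind. Without such genes 30 of 56 members (53.6%) were bound, against 16% of all genes.

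The summit lay upstream of the gene start at all 36 bound members, and at 2836 of all 3027 bound genes. The median distance was 230.5 bp and the range 14 to 458 bp, against a median of 170 bp over all bound genes. Of the 36 bound members, 17 had the summit closer than 200 bp, 9 at 200 to 300 bp and 10 farther away. Of those 10, 9 share the summit with another gene; hsp-1 is the exception. In all, 22 bound members (61.1%) share their summit with a gene on the opposite strand, as do 1264 of the 3027 bound genes (41.8%). A shared summit cannot be given to either gene from these lists. When a summit counted for no gene but the closest one within 2000 bp, 8 of 20 constitutive genes (40%) were bound, with cct-2 the one cct gene left, as was 1 of 7 heat-inducible genes, hsp-16.41, against 17.2% of all genes by that rule.

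**Figure D3:**
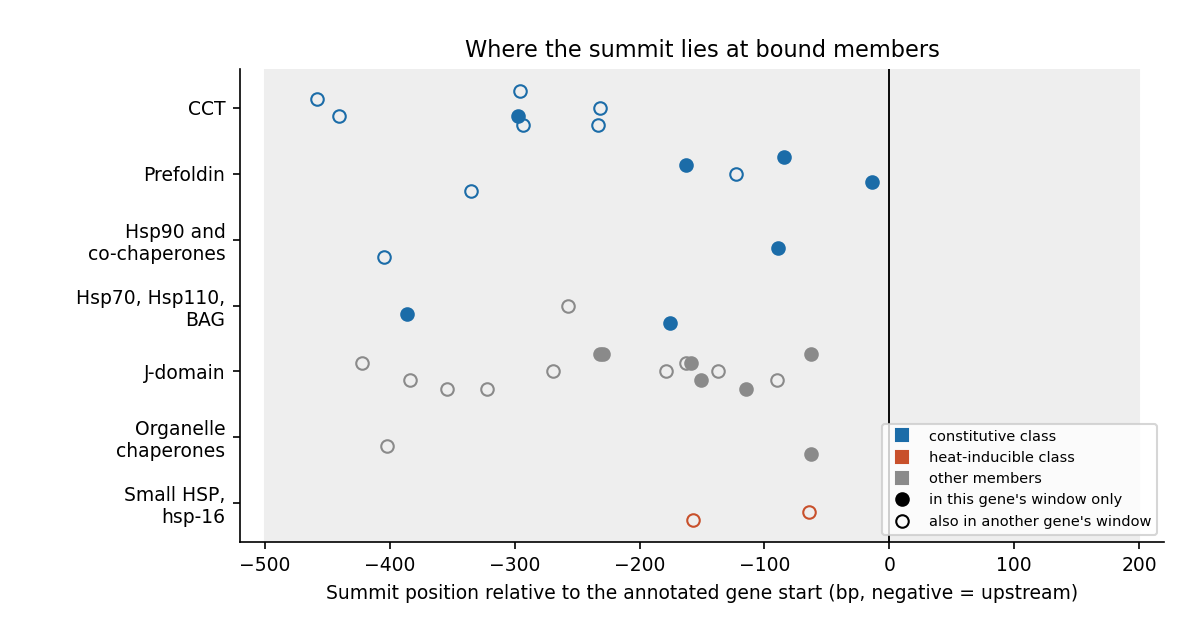
Position of the best IDR summit relative to the annotated gene start (bp, negative is upstream) at the 36 bound members, by family. Filled circles are summits in the window of that gene only, open circles summits also in the window of another gene, and the grey field is the promoter window. Blue marks are the constitutive class, red marks the heat-inducible class and grey marks other members; all marks lie left of the start line, between 14 and 458 bp.

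The E2F consensus stood at few of these peaks. It was searched as TTNNCGC, where each N had to be C or G, on both strands within 100 bp of the summit. It occurred at 5 of 35 member summits (14.3%), against 19.9% of the 2373 summits of all bound genes and 17.5% of all IDR peaks. The 5 were cct-5, cct-8, dnj-9, dnj-12 and pfd-3, and in each the motif lay within 50 bp of the summit. In the constitutive class 3 of 16 summits held it, and the summit of hsp-16.2 and hsp-16.41 did not. The 2 strongest peaks after dnj-9, at sti-1 and pfd-6, held none, as the printed stretch at sti-1 shows. In whole promoter windows it occurred in 7 of 70 members (10%) and in 19.5% of all genes. The cell cycle genes homology region, a site bound by the DREAM subunit LIN-54 and written TTCGAA or TTTGAA, was found at 17 member summits (48.6%) and at 52.4% of the summits of all bound genes. A match of letters is a description and does not show which factor binds.

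Heat shock elements marked members in both classes. The search took 3 units in alternate orientation, GAA, then any 2 bases, then TTC, then any 2 bases, then GAA, or the reverse complement of this. It matched in the promoter windows of 15 of 70 members (21.4%), against 4.44% of all protein-coding genes. All 7 heat-inducible genes had an element in the window, as did 4 of 20 constitutive ones, which were bag-1, hsp-1, hsp-90 and sti-1. The other 4 members with an element were hsp-110, hsp-6, dnj-12 and dnj-13. The 6 hsp-16 genes do not count as separate cases. Windows within a pair overlap, and the DNA of the hsp-16.1 and hsp-16.11 pairs is duplicated. Of the 15 members with an element 9 were bound, against 27 of the 55 members without one. Those counted as unbound include the 4 duplicated hsp-16 genes, which cannot be judged, and hsp-16.2 and hsp-16.41 were bound through 1 summit. Of the 8 members with an element outside the heat-inducible class, 7 were bound, and hsp-90, whose summit lies farther in the gene, was not. Of all 886 genes with an element in the window, 151 (17%) were bound. Near the summit itself, within 100 bp, an element stood at 3 member summits, those of bag-1, hsp-110 and the hsp-16.2 and hsp-16.41 pair (8.57%), against 1.69% of the summits of all bound genes. At hsp-110 the element was centred 26 bp from the summit and at bag-1 67 bp from it.

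Both replicates listed nearly all of these peaks. Of the 35 member summits, 34 had a summit within 100 bp in replicate 1 and 35 in replicate 2; dnj-1 was the one missing from replicate 1, with a score of 97.7 in replicate 2. The score was higher in replicate 2 at all 34 shared summits, with a median log2 ratio of 0.83 (SD 0.44), and at 4597 of the 4718 shared summits of the whole IDR set, with a median of 0.96 (SD 0.54). Because the scale of the scores is not stated, ranks within each list are given as well. The gene sti-1 ranked 46 and 44, pfd-6 ranked 42 and 54 and dnj-9 ranked 24 and 42 in replicates 1 and 2. At the lower end, dnj-8 ranked 7821 in replicate 1 and 4019 in replicate 2, and dnj-20 ranked 4646 and 3356. Calls made from the top 4835 peaks of 1 replicate changed little. With replicate 1, 35 members were bound (14.8% of all genes), without dnj-1 and dnj-8 and with hsp-12.6 added, and with replicate 2 the same 36 were bound as with the IDR set (15.3% of all genes).

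**Figure D4:**
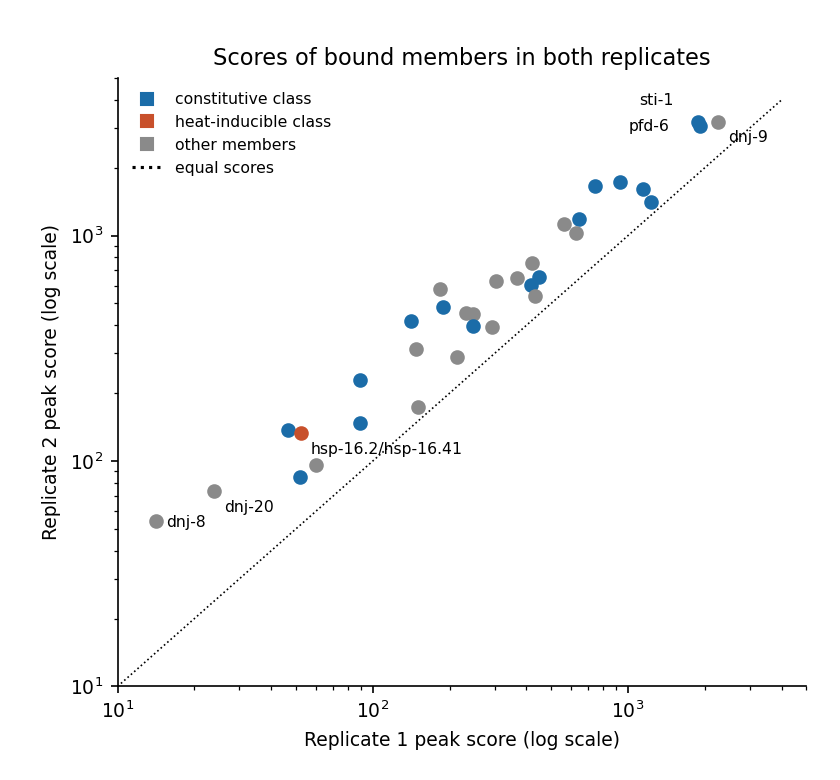
Peak scores of the 34 member summits found in both replicate lists, replicate 1 against replicate 2 (log axes, authors' units), 1 point per summit; the dotted line marks equal scores. Blue points are the constitutive class, the red point is the summit of hsp-16.2 and hsp-16.41, and grey points are other members; sti-1, pfd-6 and dnj-9 lie together at the top, and all points lie above the line of equal scores.

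The calls of single genes moved with the rule. Giving each summit only to the nearest start within 2000 bp lost 17 bound members, the strong cct-1 and cct-8 among them, and gained 7. Those gained were cdc-37, dnj-5, dnj-16, dnj-27, hsf-1, hsp-4 and hsp-12.3. The share bound was higher in the constitutive class under each rule run on both classes. Leaving out genes in duplicated sequence was not among these rules. The bound members closest to the IDR threshold of 59.6 were dnj-8, at 71.4 (14.2 in replicate 1 and 54.2 in replicate 2), and dnj-20, at 97.9 (23.8 and 73.3). The closest unbound members were dnj-7, at 45.7 (20.4 in replicate 1 and 34.2 in replicate 2), and hsp-12.6, at 45.4. With a narrower window of 300 bp upstream and 100 bp downstream, 26 members were bound against 11.7% of all genes, and the constitutive class stood at 11 of 20. With a wider one of 1000 and 500 bp, 42 were, against 19.1%; the genes added were cct-3, cdc-37, dnj-5, dnj-16, hsp-4 and hsp-60. Counting any overlap of the peak with the window gave 40, against 16.7% of all genes. With only IDR peaks at or above the median score, 31 members were bound against 10.4% of all genes, 15 of them constitutive. With any relaxed summit 47 were, against 32.7%, and the constitutive class stayed at 16 of 20. With any annotated transcript start 39 were, against 16.3%, the additions being cdc-37, dnj-16 and hsp-90. The heat-inducible class stood at 2 of 7 in each of the 6 settings here other than the nearest-start one, where it stood at 1. Of its 7 genes, 4 lie in duplicated sequence and cannot be judged, so the unchanged count shows little about the class. Without them 2 of 3 (66.7%) were bound.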

How the data were processed

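ChIP-seq of EFL-1 in 2 biological replicates of L1 larvae, with fragments of 150 to 350 bp per the labels, gave the deposited peak lists. Per the text deposited with the samples, a relaxed list was called with a control for each replicate and for both together, and an IDR-thresholded list was made from these. The IDR list equals the top 4835 of the pooled list. Which aligner and peak caller were run is not stated in the sources. Each peak carries a score deposited by the authors, used within 1 list, and a summit offset. The ce10 lists were not used here.

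Positions are 1-based on ce11 (WBcel235), with Ensembl release 115 genes. Where several summits fell in a window, the highest-scoring one gave the values, and a replicate's value is its best summit within 100 bp of the pooled one. Where 2 genes had the same name, RefSeq symbols (hsp-16.11, hsp-16.49) told them apart. Scripts ran in Python 3.11.15 and were tested on simulated data. No tests were run. Members, classes and lists were chosen with earlier results of these data known. Every member is accounted for; replicate values follow a fixed rule (CCT, prefoldin, hsp-16, Hsp70 and Hsp90 genes, hsf-1, the strongest members and those nearest the threshold), and those of dnj-1 and hsp-60 and other genes named were chosen after their values were seen.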

Additional observations from a re-analysis of the deposited data

How the results depend on the processing

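The count of bound members stayed within 1.5 times the main count of 36 in all 12 alternatives run, between 26 and 47. The distance to the share of all genes did not stay the same. It was 51.4% against 15.2% by the main rule and 67.1% against 32.7% with any relaxed summit. With the nearest start within 2000 bp it was 37.1% against 17.2%, with 17 members lost and 7 gained. The E2F count stayed between 5 and 7 in its 5 alternatives. Giving each summit only to the nearest start within 2000 bp gave 8 of 20 constitutive and 1 of 7 heat-inducible genes; this follows from the shared summits, which go to the other gene there. Counting each summit once, a setting chosen after seeing the data like the one on duplicated sequence, left 1 for the heat-inducible class, and leaving out genes in duplicated sequence gave 2 of 3. From the top peaks of 1 replicate alone, the counts were 35 and 36 for all members, 16 for the constitutive class, 2 for the heat-inducible class and 5 for the E2F consensus. Defining the heat-inducible class as all small heat shock genes and hsp-70 gave 2 of 14 (14.3%), near the 15.2% of all protein-coding genes. The cct- and pfd- genes alone gave 12 of 14 (85.7%) for the constitutive class. No paired analysis was possible because there is 1 group. Without read counts, the depth behind an unlisted summit is unknown, and a gene with none is not shown to be free of EFL-1.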
